A study of Mus musculus with 12 samples.

Results

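The genes described here encode the glycosyltransferases and sulfotransferases that build mucin-type O-glycans, N-glycan branches and their capping groups. They were chosen by symbol, as every gene named Galnt, St3gal, St6gal, St8sia, Fut, B3gnt, B4galnt, B4galt, B3galt, B3galnt, Gcnt, C1galt, Chst or Mgat followed by a number. This rule was set with earlier results of these data known. Of the 15687 genes measured, 77 fit this rule. Of these, 76 are protein-coding, and the other, *St8sia3os*, is an antisense RNA of *St8sia3* and not an enzyme. The annotation holds 98 symbols of this form, and the 21 that the table does not list were not analysed here.

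RNA was sequenced from 12 subcutaneous tumors of mTC11, a mouse lung cancer cell line, grown in male C57BL6/J hosts that were 8 weeks old at injection, and taken on day 24. Of these, 6 came from cells with a control shRNA (CTL) and 6 from cells with a lentiviral shRNA against *Filip1l* (*Filip1l*-knockdown). The cells of either group were puromycin-selected mixed clones, injected in Matrigel into hosts with an intact immune system. Constructs against 2 target sequences were made, and which of them the sequenced tumors carried is not given in the sources used here. Nor do these sources say whether the tumors of a group came from separately transduced cells. The p-values below therefore measure spread between tumors, with 6 per group. They do not separate the knockdown from other differences between the injected cells, and the part of such differences was not tested. *Filip1l* itself ranged from 1983 to 2542 normalized counts with the control shRNA (median 2354) and from 1670 to 2184 with the knockdown (median 1935). It was lower by a small amount, with a log2 fold change of -0.26 and an adjusted p of 0.00998 from limma, and the groups overlapped. These values are whole-tumor RNA. The paper judged the knockdown by protein, with an immunoblot of the mTC11 cells and less FILIP1L staining in knockdown tumors.

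A normalized count is the number of reads on a gene divided by the size factor of its tumor, so it compares 1 gene between tumors and is not corrected for gene length. The libraries held 17834745 to 32419578 reads on listed genes, and 1 read was worth 0.865 to 1.49 normalized counts. Epithelial markers were present, and their sum separated the groups. The summed level of 7 of them, among them *Epcam* and *Krt8*, was 135702 to 176446 in the CTL and 190754 to 355216 in the knockdown group, and 4 of the 7 were more than 2-fold higher. *Cdh1* did not pass (log2 fold change 0.0082, limma adjusted p = 0.950). *Krt18* and *Esrp1* rose by the adjusted p, with overlap between groups. All 7 measured intestinal markers were also called higher. Of 8 goblet and mucous cell markers, 4 were called higher, among them *Agr2* and *Muc2*, while their sums overlapped, at 975.4 to 6265 and 3462 to 23139.9. *Spdef* (log2 fold change 0.19, limma adjusted p = 0.805), *Foxa3* (0.15, limma adjusted p = 0.606), *Creb3l4* and *Tff3* did not pass. Of 8 gastric markers 3 were called higher, and 2, *Sox2* (-3.50) and *Tff2* (-2.72), were called lower. Their median log2 fold change was -0.66, and their sums overlapped. Of 10 lung epithelial markers 6 were measured and 2 rose by the adjusted p, with a median log2 fold change of 0.88 and overlapping sums. The 2 that rose were *Sftpb* and *Napsa*, both with overlap between groups. *Sftpb* had means of 29.7 normalized counts in the CTL and 304 in the knockdown group (limma adjusted p = 0.0463). *Napsa* had 244 and 461 (limma adjusted p = 0.00248). *Hopx* and *Sftpc* did not pass. The lung lineage factor *Nkx2-1* had 17.2 ± 14.3 normalized counts in the CTL and 39.4 ± 40.9 in the knockdown group (SD, n = 6 each; adjusted p = 0.443), and the surfactant protein gene *Sftpd* had 1737 ± 712 and 2068 ± 523 (adjusted p = 0.336). The tumors also held skeletal muscle RNA, for which 9 of 11 markers were called higher in knockdown tumors, and neutrophil RNA, for which 5 of 6 were. Muscle sums overlapped, at 2518 to 13295 in the CTL and 5527 to 97690 in the knockdown group. So did neutrophil sums, at 933.6 to 1774 and 1076 to 2907. Each of the 5 called neutrophil markers was higher in every knockdown tumor than in any CTL tumor. The other one, *Mmp9*, had the highest mean of the list in both groups, 1076 and 765 normalized counts, and did not pass (log2 fold change -0.66, limma adjusted p = 0.116). Of 8 endothelial markers 6 rose by the adjusted p and 2 of 3 adipocyte markers were called higher, and for both lists the summed level was higher in every knockdown tumor than in any CTL tumor. For 9 fibroblast markers the sum was 161794 to 264679 in the CTL and 75846 to 254952 in the knockdown group. In whole tumors, fewer cells of a type and less RNA per cell cannot be told apart, and the part of these markers in the results below was not tested. *Filip1l*-knockdown tumor 1 stood apart, with the lowest epithelial and the highest fibroblast sum of its group.

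Mucins carry dense O-glycans that begin when a GALNT enzyme links GalNAc to serine or threonine. Core enzymes then add galactose or GlcNAc, other enzymes lengthen the chains, and fucose, sialic acid, sulfate or a terminal GalNAc cap them. Each step draws on activated donors, such as UDP-GalNAc, GDP-fucose, CMP-sialic acid and the sulfate donor PAPS, which transporters carry into the Golgi. In gut and airway epithelium these caps form blood group and Lewis antigens, and their pattern is often altered in adenocarcinoma. Many genes chosen by these symbols also act outside mucins, on N-glycans, gangliosides or proteoglycans, and this is stated where it applies.

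Most of these genes kept their level within 2-fold, while a small number changed many-fold in either direction. A gene was called when its adjusted p was under 0.05 and its log2 fold change was beyond 1 in either direction, in limma's test over all 15687 genes with Benjamini-Hochberg adjustment. By that rule 9 of the 77 were higher in *Filip1l*-knockdown tumors, which is 11.7% against 6.2% of all genes. Lower calls were 5 of 77, or 6.49% against 3.97% of all genes. By the adjusted p alone 19 were higher (24.7%, against 21.1% of all genes) and 21 were lower (27.3%, against 20.7%), and 37 passed in neither direction. The groups did not overlap for 13 genes that were higher, against 10.6% of all genes, and for 14 that were lower, against 10.9%. The median log2 fold change of the 77 was -0.00032, beside 0.0078 for all genes. Without *Filip1l*-knockdown tumor 1, 8 genes were called higher and 7 lower, the lower ones then with *Chst11* (log2 fold change -1.06) and *B3gnt9* (-1.03).

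**Figure D1:**
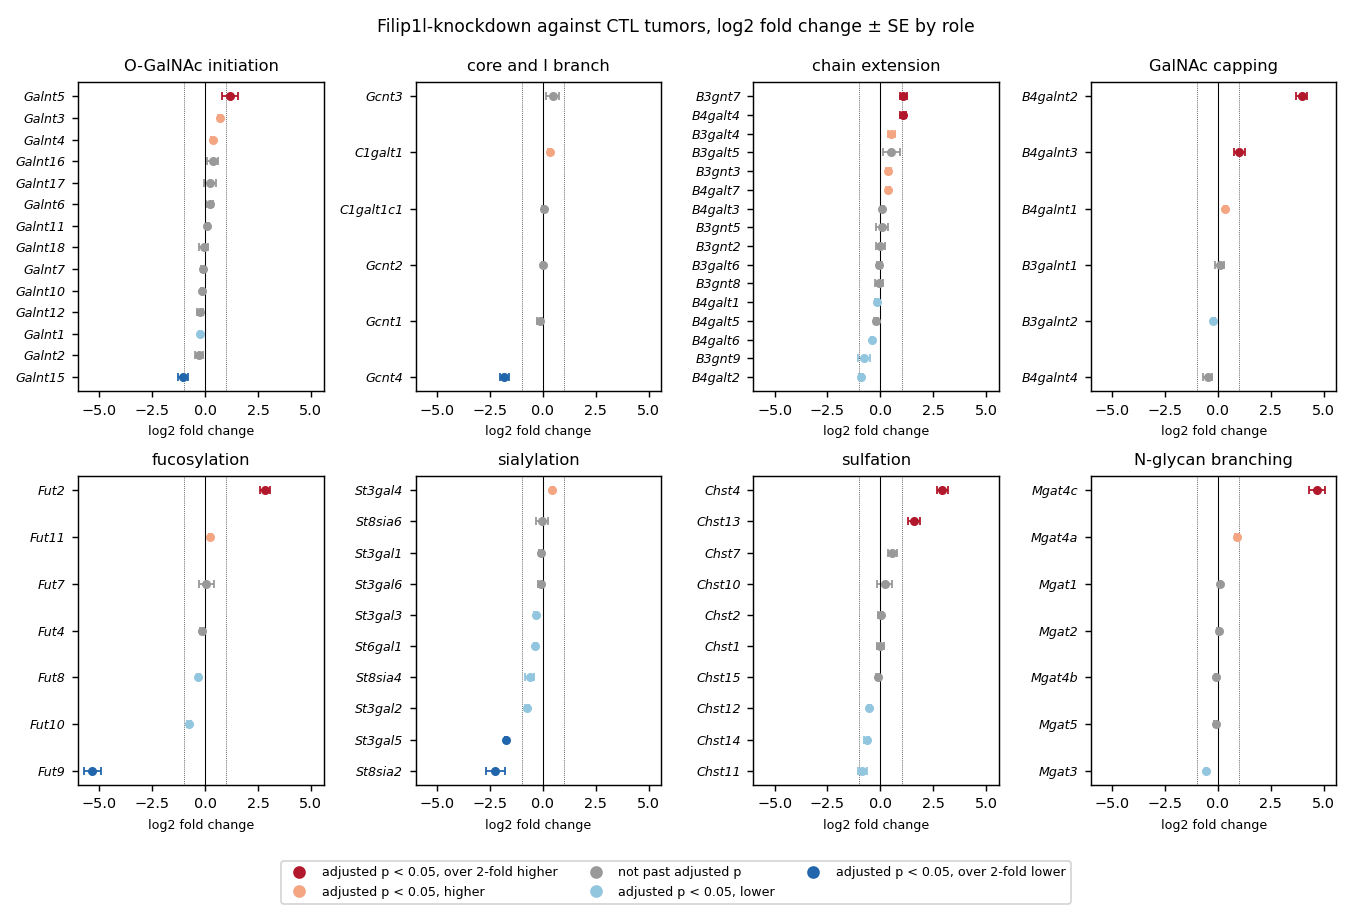
Log2 fold change of *Filip1l*-knockdown over CTL tumors (x axis, n = 6 each) for the 76 protein-coding genes, 1 panel per role, with the standard error as a bar and dotted lines at a 2-fold change. Most points lie between the dotted lines, and 14 genes lie beyond them with an adjusted p under 0.05, with *Mgat4c*, *B4galnt2*, *Chst4*, *Fut2* and *Fut9* farthest out.

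Among the 14 GALNT genes, which initiate O-glycans, 3 rose and 2 fell by the adjusted p. That is 21.4% and 14.3%, against 21.1% and 20.7% of all genes. *Galnt1*, a widely expressed initiating enzyme, fell from 6851 ± 687 to 5782 ± 245 normalized counts (CTL, then knockdown; here and below mean ± SD, n = 6 per group), which is -0.24 on the log2 scale (SE 0.06, adjusted p = 0.00769). *Galnt3*, which among other substrates protects the hormone FGF23 from cleavage, rose by 0.70 on the log2 scale, from 1739 ± 169 to 2848 ± 407 (adjusted p = 5.38e-05). *Galnt4*, an enzyme that prefers peptides already carrying GalNAc, rose from 1880 ± 139 to 2409 ± 212 (log2 fold change 0.36, adjusted p = 0.000815), though 8.25% of its exon bases are shared with *Poc1b*. For these 3 genes the groups did not overlap.

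*Galnt15* (chr14:32028989-32062197, GRCm38) was the only GALNT gene called lower. Its normalized counts ran from 185 to 458 in CTL tumors, with a median of 281. Knockdown tumors ran from 95.1 to 213, with a median of 119. All 6 knockdown tumors lay below the CTL median and the highest of them lay above the lowest CTL tumor, so the groups overlapped. This gave a log2 fold change of -1.04 (SE 0.25, limma adjusted p = 0.00406; exact two-sided permutation p = 0.00866). *Galnt15* lies on chromosome 14, whose genes had a median log2 difference of 0.38 in favor of knockdown tumors, opposite to this gene.

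*Galnt5* was called higher at a level close to that of a few reads, 7.35 ± 5.18 and then 15.3 ± 2.85 normalized counts (log2 fold change 1.17, limma adjusted p = 0.0248). *Galnt2*, another widely expressed initiating enzyme, had 147 ± 40.2 and 118 ± 24.9 (log2 fold change -0.29, adjusted p = 0.255). Its count is uncertain, since 90.0% of its exon bases are also annotated to the read-through gene *Gm20388*. Summed per kilobase of exon, the 14 genes gave 3394 ± 183 normalized counts per kb with the control and 3426 ± 128 with the knockdown. The ratio of the means was 1.01, and it turned to 0.98 when each tumor was scaled to the same total, so no direction is given for the family.

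At the next step, the core 1 enzyme *C1galt1*, which adds galactose to form the T antigen, rose by 0.32 on the log2 scale, from 3479 ± 325 to 4344 ± 314 normalized counts, with no overlap between groups (adjusted p = 0.00197). Its chaperone *C1galt1c1* (Cosmc) had 779 ± 30.0 and 807 ± 117 (log2 fold change 0.04, adjusted p = 0.756). Of the 4 GCNT genes, which add the GlcNAc of core 2, core 4 or I branches, only *Gcnt4* passed the adjusted p. *Gcnt3*, the mucin-type core 2 and core 4 enzyme, had the highest level of the 4 per kb, with 671 normalized counts per kb in CTL and 969 in knockdown tumors, and its log2 fold change was 0.47 (adjusted p = 0.235). Knockdown tumor 1 had 1450 normalized counts of *Gcnt3*, below every CTL tumor (1604 to 3861). The other knockdown tumors had 3590 to 5729.

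*Gcnt4* (chr13:96924689-96950906) is a core 2 enzyme. In CTL tumors it had 312 to 504 normalized counts, with a median of 361. Its range was 64.6 to 187 in the knockdown group, with a median of 102. Every knockdown tumor was below every CTL tumor, and knockdown tumor 1 was the highest of its group. The limma fit gave a log2 fold change of -1.81 (SE 0.21, limma adjusted p = 1.16e-05; exact permutation p = 0.00216, the smallest that 6 against 6 tumors allow). An antisense gene, *Gm48597*, covers 10.5% of its exon bases, and the libraries did not mark strand, so reads of the 2 genes cannot be told apart there.

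The 16 genes that lengthen the chains with galactose or GlcNAc moved both ways, 5 higher and 4 lower by the adjusted p. Among all genes, 21.1% were higher and 20.7% lower by the same measure. *B3gnt3*, which extends core 1 and serves L-selectin ligands, had the highest level per kb of all 77 genes in either group, 2712 normalized counts per kb in CTL and 3520 in knockdown tumors. *B3gnt7*, a GlcNAc-transferase of keratan sulfate chains, and *B4galt4*, a galactosyltransferase that acts on 6-sulfated GlcNAc in the same chains, were the 2 called genes.

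*B3gnt7* (chr1:86302832-86307305) had 97.1 to 155 normalized counts in CTL tumors, with a median of 105. Among knockdown tumors the lowest was 191, the median 242 and the highest 309. No CTL tumor reached the knockdown range, in which tumors 1 and 5 were the highest. The log2 fold change was 1.08 (SE 0.16, limma adjusted p = 0.000104; exact permutation p = 0.00216), and the antisense gene *Gm28626* covers 12.6% of its exon bases.

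*B4galt4* (chr16:38742264-38769049) had 76.2 to 125 normalized counts in CTL tumors, with a median of 101. The knockdown values ran from 160 to 249, with a median of 230. Again the groups were apart, with knockdown tumors 1 and 4 the lowest of their group. This gave a log2 fold change of 1.07 (SE 0.15, limma adjusted p = 6.66e-05; exact permutation p = 0.00216), and it was 0.99 without CTL tumor 5.

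*B4galt2*, an N-acetyllactosamine synthase, fell from 650 ± 22.7 to 348 ± 55.3 normalized counts (log2 fold change -0.91, adjusted p = 4.07e-06), and 28.2% of its exon bases are shared with *Ccdc24*. *B3gnt9* had 269 ± 65.8 and 169 ± 97.4 (log2 fold change -0.78, adjusted p = 0.0348). Its adjusted p missed the threshold in 8 of 12 fits that left out a tumor and reached 0.113 with chromosome medians removed. *D230025D16Rik*, on the opposite strand, covers 16.5% of the exon bases of *B3gnt9*. *B3galt4*, which makes the ganglioside GM1, rose from 134 ± 32.6 to 190 ± 26.2 (log2 fold change 0.52, adjusted p = 0.0138). The 7 B4GALT genes summed to 3812 ± 116 normalized counts per kb in CTL and 3330 ± 139 in knockdown tumors, and the groups did not overlap. *B3gnt2*, the main poly-N-acetyllactosamine enzyme, is uncertain, because 58.6% of its exon bases are annotated to *Gm28048* as well.

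Among 6 genes that add a terminal or internal GalNAc, 3 rose and 1 fell by the adjusted p. Over all genes, 21.1% rose and 20.7% fell. *B4galnt2* makes the Sda antigen of gut epithelium. The gene, at chr11:95865943-95914891, had 14.2 to 47.6 normalized counts in CTL tumors, with a median of 24.2. Knockdown tumors ran from 335 to 546, with a median of 412. The lowest knockdown tumor was far above the highest CTL tumor. The limma fit gave a log2 fold change of 3.96 (SE 0.25, limma adjusted p = 6.42e-08; exact permutation p = 0.00216), and the antisense gene *Gm11534* covers 15.3% of its exon bases.

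*B4galnt3* (chr6:120203073-120294559) forms the LacdiNAc group. It had 22.4 to 65.7 normalized counts in CTL tumors, with a median of 35.9. Its range was 54.3 to 107 in the knockdown group, with a median of 83.7. The groups overlapped, since knockdown tumor 3 lay below CTL tumors 5 and 6. Its log2 fold change of 1.01 (SE 0.26, limma adjusted p = 0.00592; exact permutation p = 0.00866) sat at the threshold, and 8 of 12 fits that left out a tumor gave less than 1. *B4galnt1*, which makes the gangliosides GM2 and GD2, rose from 2352 ± 261 to 2972 ± 166 (log2 fold change 0.34, adjusted p = 0.00139), with 20.7% of its exon bases under *Slc26a10*. *B3galnt2*, an enzyme of alpha-dystroglycan, had 1243 ± 86.8 and 1073 ± 127 (log2 fold change -0.22, adjusted p = 0.0426), a call that 8 of 12 fits without a tumor lost.

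**Figure D2:**
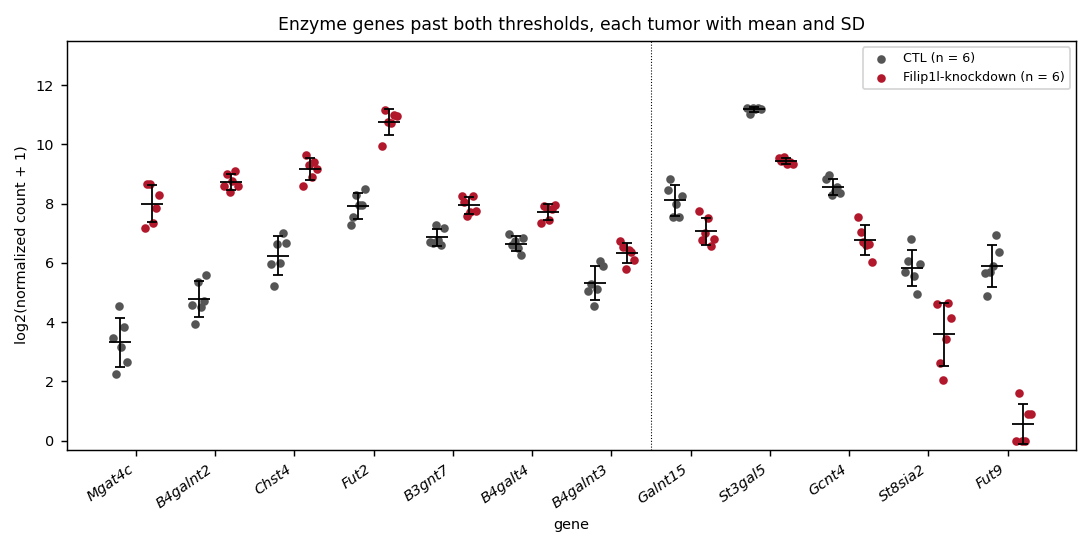
Values of the 12 called genes that reached a group mean of 50 normalized counts, as log2(normalized count + 1) on the y axis, with 1 point per tumor, CTL in gray and *Filip1l*-knockdown in red (n = 6 each), and the mean with SD as bars. The dotted line parts 7 higher from 5 lower genes; the groups overlap for *B4galnt3* and *Galnt15*, and *Fut9* is at 0 in 3 knockdown tumors.

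The 7 fucosyltransferase genes held the largest fall of the 77 genes, that of *Fut9*, and a large rise, that of *Fut2*. *Fut2* adds alpha-1,2-linked fucose to make H antigen on secreted mucins. The gene, at chr7:45648591-45666394, had 156 to 363 normalized counts in CTL tumors, with a median of 246. Among knockdown tumors the lowest was 987, the median 1864 and the highest 2288. The groups were separate, and knockdown tumor 1 was the lowest of its group. The log2 fold change was 2.83 (SE 0.22, limma adjusted p = 3.96e-07; exact permutation p = 0.00216).

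*Fut9* adds alpha-1,3-linked fucose to make Lewis X. The gene, at chr4:25609332-25800244, had 28.4 to 122 normalized counts in CTL tumors, with a median of 54.7. The knockdown values ran from 0 to 2.08, with a median of 0.432, and 3 tumors were at 0. All 6 knockdown tumors lay at or under the floor of 3 reads, with 4 reads in all beside 364 in CTL tumors. After size factors the read ratio of CTL to knockdown was 96.3 (exact 95% interval 37.3 to 355, for counting error only). This gave a log2 fold change of -5.33 (SE 0.41, limma adjusted p = 4.12e-07; exact permutation p = 0.00216), a size that depends on the pseudocount at such low values.

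*Fut8*, which adds core fucose to N-glycans, fell from 4094 ± 201 to 3288 ± 210 normalized counts (log2 fold change -0.32, adjusted p = 0.000299). *Fut10* fell from 425 ± 37.3 to 250 ± 30.4 (log2 fold change -0.76, adjusted p = 2.3e-05). It lies on chromosome 8, where the median gene was lower by 0.20 on the log2 scale, and its log2 fold change was -0.57 with chromosome medians removed. *Fut11* had 1042 ± 129 and 1232 ± 112 (log2 fold change 0.25, adjusted p = 0.0357). It lies on chromosome 14, and with chromosome medians removed its value turned to -0.14 (adjusted p = 0.195). *Fut4*, another Lewis X enzyme, and *Fut7*, which makes sialyl Lewis X, did not pass, with log2 fold changes of -0.15 and 0.06.

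Most sialyltransferase genes were lower in *Filip1l*-knockdown tumors. Of 10 sialyltransferase genes, 6 fell and 1 rose by the adjusted p, and 9 of 10 had a log2 fold change below 0, beside 7698 of 15687 for all genes. By the adjusted p, 20.7% of all genes fell and 21.1% rose. The median of the 10 was -0.34. *St3gal5* makes the ganglioside GM3 and so acts on glycolipids rather than mucins. Its locus is chr6:72097592-72154571. It had 2104 to 2427 normalized counts in CTL tumors, with a median of 2366. Knockdown tumors ran from 644 to 765, with a median of 693. The spread within each group was narrow and the groups were far apart. The limma fit gave a log2 fold change of -1.74 (SE 0.06, limma adjusted p = 6.33e-10; exact permutation p = 0.00216).

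*St8sia2* makes polysialic acid, best known on the neural cell adhesion molecule. Its locus is chr7:73939119-74013690. It had 29.9 to 110 normalized counts in CTL tumors, with a median of 55.9. Its range was 3.13 to 24.2 in the knockdown group, with a median of 13.2. No group reached into the other, though the highest knockdown tumor came close to the lowest CTL tumor. The log2 fold change was -2.25 (SE 0.46, limma adjusted p = 0.00122; exact permutation p = 0.00216).

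*St3gal4*, which caps N-acetyllactosamine on glycoproteins, was the gene that rose, from 4062 ± 399 to 5531 ± 540 normalized counts (log2 fold change 0.45, adjusted p = 0.000428). On the opposite strand, *4930581F22Rik* covers 14.1% of the exon bases of *St3gal4*. *St3gal2*, which caps core 1 and gangliosides, fell from 3104 ± 245 to 1859 ± 242 (log2 fold change -0.75, adjusted p = 9.32e-06; -0.55 with chromosome medians removed, as it lies on chromosome 8). *St8sia4*, the other polysialyltransferase, had 336 ± 71.4 and 225 ± 89.9 (log2 fold change -0.63, adjusted p = 0.0302), a call lost in 7 of 12 fits that left out a tumor. *St3gal1*, which caps core 1, did not pass (log2 fold change -0.10, adjusted p = 0.334).

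Of 10 carbohydrate sulfotransferase genes, 2 were called higher and 3 fell by less than 2-fold. Over all genes, 6.2% were called higher, and 20.7% fell by the adjusted p alone, at any size of change. *Chst4* adds sulfate to carbon 6 of GlcNAc on mucin-type chains, as in L-selectin ligands. Its locus is chr8:110029153-110039740. It had 36.0 to 127 normalized counts in CTL tumors, with a median of 80.5. Among knockdown tumors the lowest was 388, the median 608 and the highest 802. The groups were separate, and knockdown tumor 1 was the lowest of its group. This gave a log2 fold change of 2.93 (SE 0.27, limma adjusted p = 1.69e-06; exact permutation p = 0.00216), while the median gene of its chromosome was lower.

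The other sulfotransferases that changed act on chondroitin or dermatan sulfate. *Chst13* rose at a low level, from 9.72 ± 3.61 to 29.9 ± 6.68 normalized counts (log2 fold change 1.58, limma adjusted p = 0.000575). *Chst11* had 977 ± 195 and 562 ± 251 (log2 fold change -0.86, adjusted p = 0.00537), and knockdown tumor 1 alone reached the CTL range, at 1063. *Chst14* fell from 527 ± 70.8 to 336 ± 52.9 (log2 fold change -0.65, adjusted p = 0.000419) and *Chst12* from 868 ± 42.8 to 607 ± 58.4 (log2 fold change -0.52, adjusted p = 4.76e-05). Of the 9 fibroblast markers 3 fell by the adjusted p and 6 did not pass, and the part of fibroblasts in these changes was not tested.

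Among the 7 MGAT genes of N-glycan branching, 2 rose and 1 fell by the adjusted p. That is 28.6% and 14.3%, against 21.1% and 20.7% of all genes. *Mgat4c*, a relative of the enzymes that start the beta-1,4 branch, had the largest rise of the 77 genes. Its locus is chr10:101681487-102391469. It had 3.79 to 22.4 normalized counts in CTL tumors, with a median of 8.99. The knockdown values ran from 145 to 403, with a median of 271. Every knockdown tumor was above every CTL tumor, and tumors 1 and 4 were the lowest of their group. The limma fit gave a log2 fold change of 4.68 (SE 0.38, limma adjusted p = 6.13e-07; exact permutation p = 0.00216), and its size rests on few reads in CTL tumors.

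*Mgat4a*, which itself starts the beta-1,4 branch, rose from 1404 ± 215 to 2579 ± 158 normalized counts (log2 fold change 0.89, adjusted p = 3.62e-06). *Mgat3*, which adds the bisecting GlcNAc, fell from 5652 ± 119 to 3832 ± 345 (log2 fold change -0.57, adjusted p = 3.91e-06). For both genes the groups were separate. *Mgat1*, the gateway to complex N-glycans, had 2884 ± 113 and 3110 ± 242 (log2 fold change 0.11, adjusted p = 0.140), and *Mgat2*, *Mgat4b* and *Mgat5* did not pass either.

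Levels can be compared between genes once divided by exon length. On this scale the called genes rarely led their group in CTL tumors. *Fut2* went from rank 49 of 77 in the CTL to rank 20 in the knockdown group, with 46.3 and 329 normalized counts per kb. *Chst4* went from rank 52 to rank 26 and *B4galnt2* from rank 62 to rank 28. *Mgat4c* was the lowest of the 77 in CTL tumors, at 0.98 normalized counts per kb, and stayed low in knockdown tumors, at 25.8. In the other direction *St3gal5* went from rank 10 to rank 25 and *Fut9* from rank 71 to rank 77.

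**Figure D3:**
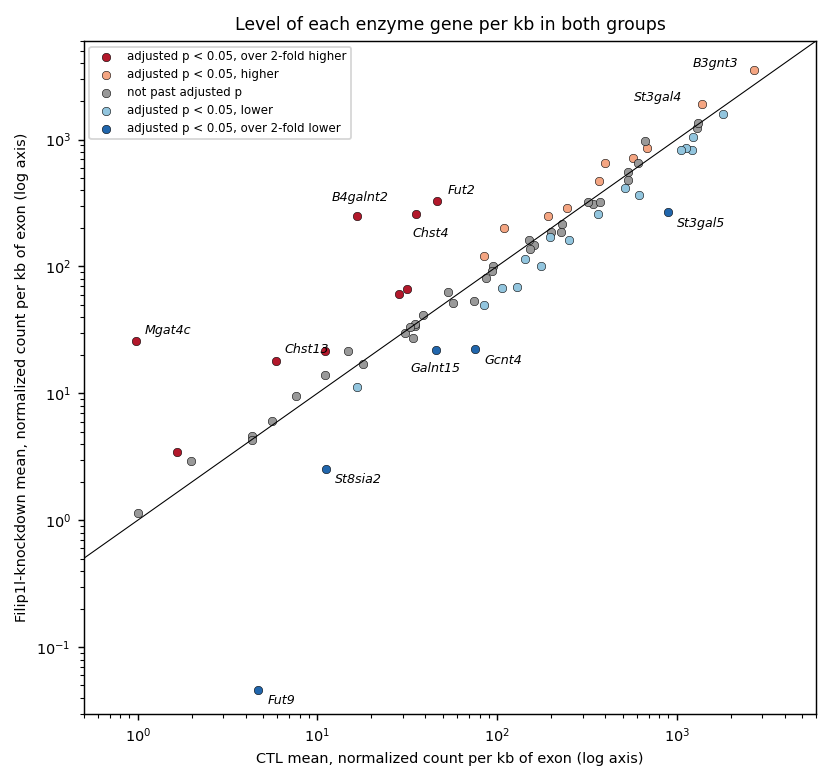
Mean level of the 76 protein-coding genes per kb of exon in CTL tumors (x axis) and *Filip1l*-knockdown tumors (y axis), both in normalized counts per kb on log axes, n = 6 each, with the line of equal levels. Most genes lie on or near the line; *Fut2*, *Chst4* and *B4galnt2* rise from the lower part of the range to above 250 normalized counts per kb, and *Fut9* falls to 0.046.

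The make-up of several families shifted within each tumor. The share of a gene is its level per kb over the sum of its family in that tumor, which does not depend on how tumors were scaled. Of 75 shares in 13 families, 40 differed between groups by an exact two-sided permutation test with Benjamini-Hochberg adjustment over the 75, of which 19 were higher and 21 lower in knockdown tumors. Shares of 1 family sum to 100%, so they are not independent, and they restate in part the changes of single genes given above. *Fut2* made up 4.79% ± 1.38 of the FUT family in the CTL and 28.4% ± 5.26 in the knockdown group. *Fut8* went from 53.9% ± 2.34 to 36.5% ± 1.64, while *Fut11* had 25.5% ± 3.23 and 25.5% ± 2.82. *Chst4* made up 3.08% ± 1.25 of the CHST family and then 23.6% ± 5.53, and *B4galnt2* made up 2.09% ± 0.78 of the B4GALNT family and then 21.1% ± 2.29. In the ST3GAL family *St3gal4* went from 41.7% ± 2.11 to 64.9% ± 3.57 and *St3gal5* from 26.8% ± 0.57 to 9.22% ± 1.01. For these shares, apart from that of *Fut11*, the groups did not overlap and the adjusted p was 0.0058 by the exact permutation test, the lowest of the 75. In the GALNT family *Galnt1* went from 36.6% ± 2.78 to 30.6% ± 2.03 and *Galnt3* from 11.7% ± 0.87 to 19.0% ± 2.24.

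**Figure D4:**
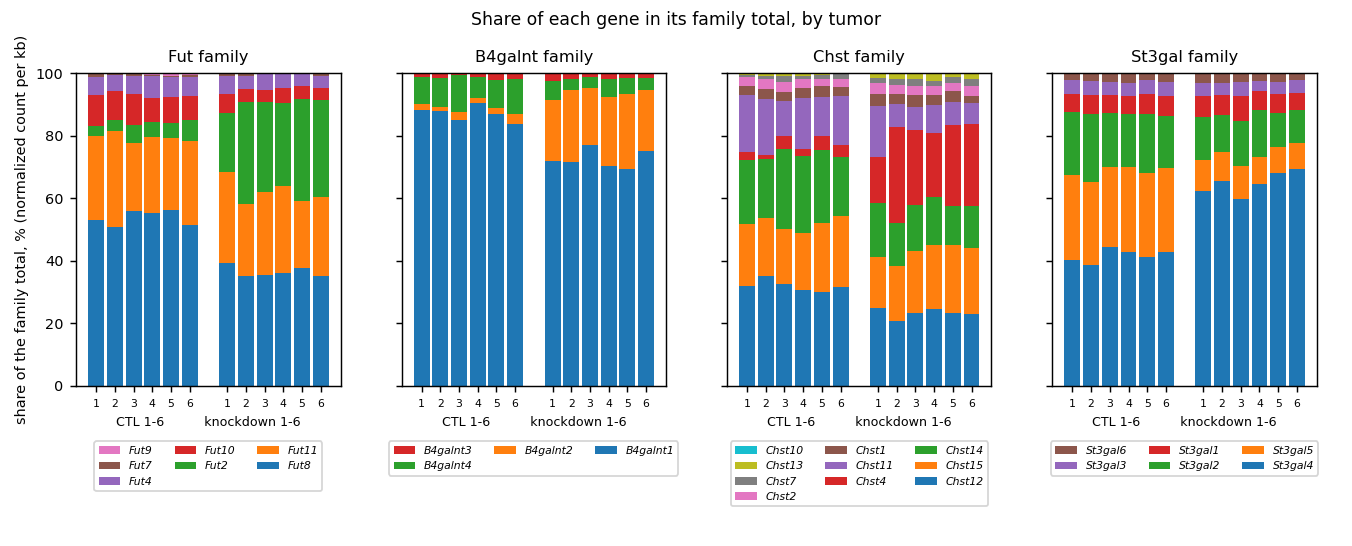
Share of each gene in the per-kb total of its family (y axis, %) in every tumor, with CTL tumors 1 to 6 on the left and *Filip1l*-knockdown tumors 1 to 6 on the right of each panel, for the FUT, B4GALNT, CHST and ST3GAL families. *Fut2*, *B4galnt2*, *Chst4* and *St3gal4* take larger shares in every knockdown tumor than in any CTL tumor.

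Most genes that make and carry the donors were higher in *Filip1l*-knockdown tumors. The lists of these genes were chosen with earlier results of these data known. The 25 genes of nucleotide sugar synthesis had a median log2 fold change of 0.38, and 16 rose and 1 fell by the adjusted p, against 21.1% and 20.7% of all genes. The 14 genes that supply sugar and sulfate donors to the Golgi had a median of 0.21, and 9 of them rose. The groups were separate, with knockdown tumors higher, for 12 of the 25 and 6 of the 14, against 10.6% of all genes. The list of 15 other glycosyltransferases had 2 higher and 7 lower by the adjusted p and a median of -0.10, and of 5 ST6GALNAC genes 1 rose and 2 fell.

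Of these lists 5 genes were called, and 4 of them are described here. *Gmds*, the GDP-mannose dehydratase that begins the de novo route to GDP-fucose, rose from 1169 ± 201 to 6128 ± 1691 normalized counts (log2 fold change 2.35, SE 0.18, adjusted p = 4.06e-07). *Gfpt1*, the entry enzyme of the hexosamine pathway, rose from 5108 ± 685 to 11819.8 ± 1977 (log2 fold change 1.20, adjusted p = 1.97e-06). *Mpi*, the mannose phosphate isomerase, rose from 542 ± 43.9 to 1129.9 ± 187 (log2 fold change 1.04, adjusted p = 4.94e-06). *St6galnac2*, which adds sialic acid to core GalNAc, fell from 185 ± 75.9 to 47.2 ± 5.19 (log2 fold change -1.86, adjusted p = 1.48e-05).

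The route to GDP-fucose was followed step by step after these values were seen. Besides *Mpi* and *Gmds*, the phosphomannomutase *Pmm2* (log2 fold change 0.58), the pyrophosphorylase genes *Gmppa* (0.38) and *Gmppb* (0.49), the GDP-fucose synthase *Tsta3* (0.33) and the Golgi GDP-fucose transporter *Slc35c1* (0.99) rose, with adjusted p values from 2.02e-05 to 0.00358. *Pmm1*, the other phosphomannomutase, fell by 0.98 on the log2 scale. The salvage genes *Fuk* (-0.21, adjusted p = 0.160) and *Fpgt* (-0.08, adjusted p = 0.447) did not pass. *Slc35a3*, the UDP-GlcNAc transporter, rose by 0.97, and *Papss2*, a PAPS synthase, by 0.54, although the median gene of its chromosome 19 was lower by 0.36.

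**Figure D5:**
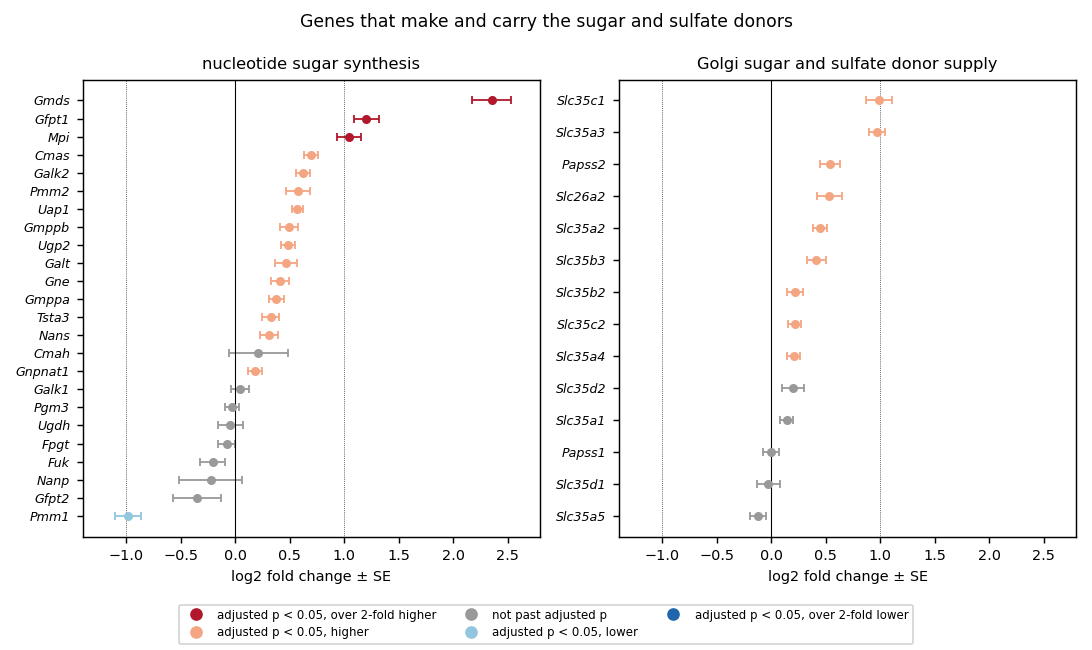
Log2 fold change of *Filip1l*-knockdown over CTL tumors (x axis, n = 6 each) with its standard error for 24 of the 25 genes of nucleotide sugar synthesis and 14 genes of Golgi donor supply. Most points lie to the right of 0, with *Gmds* farthest at 2.35 and *Pmm1* the only gene on the left that passed the adjusted p.

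Promoters of called genes are shown so that their sequence can be read beside the changes above. RefSeq starts on GRCm38 were found for 58 of the 77 genes, *Fut2* and *Fut9* not among them, and the 250 bases before each start were searched on both strands. The genes shown are the 2 higher and the 2 lower ones that changed most among those with values in full that have a single listed start and at most 20 bases inside their own annotated exons, and the most upstream of the 4 listed starts of *Mgat4c*. Each runs 5′ to 3′ on the strand of the gene. Capitals mark the GC box GGGCGG or its reverse complement and, in *Mgat4c*, the GATA motif AGATAA.
B4galnt2, chr11:95914872-95915121, minus strand: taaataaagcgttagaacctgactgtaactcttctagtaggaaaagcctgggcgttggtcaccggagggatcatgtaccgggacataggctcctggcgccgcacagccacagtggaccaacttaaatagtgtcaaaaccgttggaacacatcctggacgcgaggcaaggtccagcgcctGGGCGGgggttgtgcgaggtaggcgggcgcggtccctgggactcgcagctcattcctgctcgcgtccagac
B4galt4, chr16:38742009-38742258, plus strand: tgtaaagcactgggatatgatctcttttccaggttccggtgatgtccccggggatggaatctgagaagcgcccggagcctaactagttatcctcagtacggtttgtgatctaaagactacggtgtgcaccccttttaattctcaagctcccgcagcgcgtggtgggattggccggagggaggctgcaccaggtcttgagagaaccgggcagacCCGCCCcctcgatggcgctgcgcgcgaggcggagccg
St8sia2, chr7:74013683-74013932, minus strand: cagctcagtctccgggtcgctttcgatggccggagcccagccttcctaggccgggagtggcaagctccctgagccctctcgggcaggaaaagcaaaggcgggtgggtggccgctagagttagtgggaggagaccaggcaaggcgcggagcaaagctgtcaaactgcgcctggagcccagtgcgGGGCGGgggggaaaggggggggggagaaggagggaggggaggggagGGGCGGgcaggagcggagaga
St3gal5, chr6:72097358-72097607, plus strand: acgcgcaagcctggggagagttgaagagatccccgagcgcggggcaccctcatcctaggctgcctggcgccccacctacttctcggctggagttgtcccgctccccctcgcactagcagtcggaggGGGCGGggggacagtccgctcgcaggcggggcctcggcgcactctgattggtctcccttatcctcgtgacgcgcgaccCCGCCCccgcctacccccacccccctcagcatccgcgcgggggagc
Mgat4c, chr10:101681237-101681486, plus strand: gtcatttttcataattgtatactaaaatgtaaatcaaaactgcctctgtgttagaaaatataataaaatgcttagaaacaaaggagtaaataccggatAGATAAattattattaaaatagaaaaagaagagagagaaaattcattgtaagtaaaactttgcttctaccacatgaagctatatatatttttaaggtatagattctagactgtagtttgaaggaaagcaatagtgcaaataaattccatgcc

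Both pairs of genes that moved in opposite directions held a GC box, so this motif did not part them. It lay 71 to 66 bases before the start in *B4galnt2* and 37 to 32 bases before it in *B4galt4*. Among genes with a listed start it was found in 6 of 8 called higher, 3 of 4 called lower and 32 of 46 others, counting a gene once if any of its starts held it, beside 32.7% of all 32851 listed starts. GC content was 58.4% in *B4galnt2*, 59.2% in *B4galt4*, 68.8% in *St8sia2* and 71.6% in *St3gal5*, against 26.8% at the most upstream start of *Mgat4c* and a median of 52.4% over all starts. The AP-1 motif TGANTCA was found in *Chst4*, *Galnt15* and *Gcnt4*, that is 1 of 8 called higher and 2 of 4 called lower genes, in 3 of 46 others and at 6.75% of all starts. The TCF/LEF motif CTTTGAT was found in 0 of the 12 called genes, in 1 of 46 others and at 3.21% of all starts. AGATAA, the GATA motif, was found in *B3gnt7* and *Mgat4c*. That is 2 of 8 called higher and 0 of 4 called lower genes, beside 4 of 46 others and 9.99% of all starts. The CDX motif TTTATGG (2.43% of all starts) and the HNF1 motif GTTAATNAT (0.737%) were found in 0 of 58 genes, and the TATA box TATAAA (12.4%) in 2, among them *Mgat4c*. In *Mgat4c* it lay at a start not printed above, whose 250 bases all fall in its own annotated exons. These motif counts took every listed start, with no limit on exon bases. Of the 250 bases, 204 in *Chst4*, 114 in *Galnt15* and all 250 in *B3gnt7* lie in their own exons. Only these letters in these windows were looked at, and a match is a description of sequence.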

How the data were processed

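The authors trimmed reads with Trimmomatic 0.36, aligned them with STAR 2.5.2b, counted them per gene with featureCounts (Subread 1.5.2) and, per the labels, used mm10. Libraries were made from poly(A) RNA with a kit that does not mark strand. The deposited values are a normalized signal, counts that the authors divided by DESeq2 size factors. In all 12 tumors 100% of values were whole multiples of a step within 0.05 reads, so reads were recovered for the count tests. In 3 tumors 1 read was worth 0.997 to 1.01 normalized counts, close to 1, so the step is less distinct there.

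All 12 tumors were grouped by their labels. Values were analysed as log2(value + 1) by limma 3.58.1 (R 4.3.3), using a mean-variance trend and Benjamini-Hochberg adjustment over 15687 genes. A minimum mean of 5 removed 0 genes. Single values were compared by exact two-sided permutation tests over all 924 arrangements, with a smallest p of 0.00216. The labels call the samples biological replicates. Alternatives were other pseudocounts, filters and scalings, limma without a trend, a replicate block, removal of chromosome medians, edgeR 4.0.16, DESeq2 1.42.0 and leaving out each tumor.

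Symbols, positions and exon lengths came from GENCODE vM21 on GRCm38, which named 15655 identifiers, and promoters from RefSeq on GRCm38. The members and lists were chosen with earlier results of these data known. Every gene past both thresholds is named, with values in full where a group mean was at least 50. A set of 7 members are named whatever their values, and up to 3 per role among those past the adjusted p alone, besides the called pathway genes, of which 1 is not reported here. Other genes were named after their values were seen. On simulated data of 15684 genes for this comparison, limma called 89 of 100 genes changed by 1.5 (log2), 95 of 100 changed by 2 and 4 of 15484 unchanged ones. The changed genes had a mean of at least 20 normalized counts. Changes under 1.5 and differences in tumor make-up were not simulated, so these rates do not cover calls near 2-fold. Python 3.11.15 and matplotlib 3.10.9 made the figures.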

Additional observations from a re-analysis of the deposited data

Results flagged for a closer look

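Of 84 groups of 6 tumors looked at (42 named genes in CTL and in *Filip1l*-knockdown tumors), 6 held a tumor far from the others by Dixon's criterion, and chance flags about 1 group in 20.

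*Filip1l*-knockdown tumor 1 was the highest of its group for *Chst11*, at 1063 normalized counts with the next tumor at 497, and for *B3gnt9*, at 360.02 with the next at 170.1. It was also the knockdown tumor with the lowest epithelial sum (190754) and the highest fibroblast sum (254952). For *Galnt5*, CTL tumor 1 had 17.0 normalized counts with the next at 7.47, and knockdown tumor 2 had 20.8 with the next at 16.1. CTL tumor 2 was the lowest of its group for *St3gal5*, at 2104 beside 2323, and still far above every knockdown tumor. CTL tumor 4 was the highest of its group for *B3galt4*, at 194 beside 135.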

How the results depend on the processing

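Calls higher numbered 7 to 9 of the 77 and calls lower 4 to 7 in fits that left out a tumor, and 7 to 9 and 5 in the other alternatives. By the adjusted p alone, 17 to 20 were higher and 17 to 22 lower without a tumor, and 17 to 20 and 19 to 23 otherwise. Called genes were held to both thresholds and the other named genes to the adjusted p alone. Of 964 alternative values of 42 named genes, 899 kept their direction and their side of that threshold, 61 kept their direction and lost the call, and 4 changed sign. The sign changed for *C1galt1c1*, which had passed in no fit (-0.013 to 0.10 without a tumor, -0.0027 with tumors scaled to the same total), and for *Fut11* (-0.14 with chromosome medians removed). Lost calls were those of *B4galnt3*, *Galnt15*, *Galnt5*, *B4galt4*, *B3gnt9*, *B3galnt2*, *St8sia4*, *Fut11* and *Mpi*; the cause was not tested. Beyond these, *Chst11* (-1.06) and *B3gnt9* (-1.03) passed 2-fold without *Filip1l*-knockdown replicate 1. A minimum mean of 20 left *Galnt5* and *Chst13* untested.

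Pathway genes called higher were 3 to 6 without a tumor and 4 to 5 otherwise. Those called lower, 1 in the report, were 1 to 2 without a tumor and 2 with DESeq2, with edgeR and with tumors scaled to the same total. Of 75 shares, 37 to 45 passed without a tumor and 38 to 41 with other gene lengths or none. The log2 fold change of *Fut9* ranged from -6.66 to -2.97 over settings other than leaving out a tumor, since its knockdown values are near 0.

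Replicate numbers did not pair the tumors, with correlations of same-numbered deviations from -0.269 to 0.099. With the replicate number as a block, 9 were called higher and 5 lower, and 19 and 20 passed the adjusted p. Depth limits *Fut9*, *Galnt5*, *Chst13*, *Mgat4c* (log2 fold change 3.91 to 4.76 over settings other than leaving out a tumor) and *St8sia2* (-2.31 to -1.69), whose values rest on few reads in at least a group.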
